A study of Homo sapiens with 8 samples.

Results

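The peaks described here are the widest PML::RARA binding sites of induced U937-PR9 cells, those that spanned 2500 bp or more. They were chosen by their width alone, whatever gene they were assigned to, and 454 of 15412 peaks in the list (2.95%) met the rule. U937-PR9 is a monocytic cell line that carries a PML::RARA transgene under a zinc-inducible promoter, and cells were kept for 5 h with 100 μM ZnSO4, which induces the fusion, or with water. The study made 8 Cut&Run libraries, with 2 replicates each of an anti-PML-RARA and an anti-RARA antibody in either condition, and 1 list of peaks was analysed here, taken from its name and the paper's number of peaks as that of induced cells and anti-PML-RARA. All values therefore come from 1 cell line with 1 transgene, in cells that had also been exposed to zinc itself. Replicates have no values of their own in the list, so neither their spread nor a test between conditions can be given. The sequencing depth is unknown, intervals cover the counting of peaks only, and neighbouring peaks are not independent.

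PML::RARA is the fusion protein of acute promyelocytic leukaemia, a disease in which myeloid cells stop at the promyelocyte stage. Through its RARA part it binds DNA like a retinoic acid receptor, its PML part lets several copies join, and histone deacetylase complexes are known to be brought to its sites. In Cut&Run, a nuclease tethered to the antibody releases the DNA around the bound protein, so a wide peak is a stretch over which DNA was released without a gap.

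The sequences at the apex, the middle of the interval in which the signal was largest, were chosen for the 3 widest members, the 3 highest and the 3 with the largest total signal, and for the members labelled SPI1 and MYB, which encode myeloid transcription factors. Each is the forward strand of hg19, 150 bases long, and capitals mark matches on either strand to the motifs searched. These were GGAAGT for ETS factors, TGTGGT for RUNX, GGGCGG for SP and KLF factors, TTGCGCAA or TTGCATCA for C/EBP, TGANTCA for AP-1, CCAAT, the nuclear receptor site AGGTCA and the E-box CACGTG. Of 11 windows chosen, 9 are shown, and that of BRD2 is not because it lies in a 5′ UTR.
GRK2, chr11:67039312-67039461: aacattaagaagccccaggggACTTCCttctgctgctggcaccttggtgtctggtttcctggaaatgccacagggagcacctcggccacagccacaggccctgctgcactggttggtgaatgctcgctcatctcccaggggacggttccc
MIDN, chr19:1253031-1253180: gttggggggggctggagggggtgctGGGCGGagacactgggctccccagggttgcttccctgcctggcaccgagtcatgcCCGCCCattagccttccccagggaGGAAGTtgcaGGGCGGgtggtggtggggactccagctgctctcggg
MDC1-labelled peak, chr6:30687900-30688049: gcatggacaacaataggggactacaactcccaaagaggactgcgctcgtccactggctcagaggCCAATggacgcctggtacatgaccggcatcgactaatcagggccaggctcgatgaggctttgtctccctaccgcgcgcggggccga
TCP1, chr6:160210801-160210950: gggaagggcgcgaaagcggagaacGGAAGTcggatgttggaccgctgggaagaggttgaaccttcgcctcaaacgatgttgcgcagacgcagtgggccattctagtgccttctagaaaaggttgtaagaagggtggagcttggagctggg
TBC1D10B, chr16:30382064-30382213: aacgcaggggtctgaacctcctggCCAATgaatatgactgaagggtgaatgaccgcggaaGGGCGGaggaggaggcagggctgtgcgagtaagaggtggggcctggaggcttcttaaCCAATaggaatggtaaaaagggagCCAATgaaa
SIN3A, chr15:75744064-75744213: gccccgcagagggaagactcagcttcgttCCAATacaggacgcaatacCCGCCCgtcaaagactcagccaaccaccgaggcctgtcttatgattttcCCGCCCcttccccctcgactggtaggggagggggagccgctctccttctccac
ING1 and CARS2 region (no symbol), chr13:111367786-111367935: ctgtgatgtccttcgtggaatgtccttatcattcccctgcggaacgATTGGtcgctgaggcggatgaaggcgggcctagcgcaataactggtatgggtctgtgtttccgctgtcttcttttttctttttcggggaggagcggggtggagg
SPI1, chr11:47398222-47398371: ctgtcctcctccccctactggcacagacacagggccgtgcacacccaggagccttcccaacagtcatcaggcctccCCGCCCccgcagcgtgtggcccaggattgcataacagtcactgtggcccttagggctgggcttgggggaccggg
MYB, chr6:135502302-135502451: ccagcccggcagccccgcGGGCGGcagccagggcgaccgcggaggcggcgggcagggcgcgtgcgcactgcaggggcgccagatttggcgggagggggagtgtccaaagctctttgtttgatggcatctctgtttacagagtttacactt

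Within these 9 windows, an ETS match occurred in 3, an SP match in 5 and a CCAAT match in 4, and the other motifs had no match. Windows of the same length at the apex of all peaks held an ETS match in 25.2%, an SP match in 33.1% and a CCAAT match in 21.5%, and those of all members in 21.1%, 49.3% and 24.0%. A match is only a run of letters and not a measured binding site.

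The members had a median width of 2991 bp, with quartiles of 2683.5 and 3455 bp. Most were near the lower end, since 230 were under 3000 bp, 61 reached 4000 bp and 21 reached 5000 bp. The members just inside the threshold, each 2500 bp wide, were an unlabelled peak 56402 bp from the nearest start site of GLI3, the SPI1 peak and a peak at ZBTB2. The SPI1 peak had a largest signal of 22, and the middle of that interval lay 1645 bp from the nearest SPI1 start site. For the ZBTB2 peak this distance was 1115 bp. Just outside the threshold were the peaks labelled VSIR (2497 bp) and ELK3 (2492 bp) and an unlabelled peak nearest VPS18 (2490 bp). Although they were 2.95% of the peaks, the members held 9.68% of all bases under peaks and 10.9% of the total signal.

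The widest member, 7313 bp, lay at chr11:67033198-67040510 over GRK2, which encodes a kinase that desensitizes G protein-coupled receptors. Its height, the largest signal at any base, was 51, and its apex lay in an intron, 978 bp downstream of the nearest GRK2 start site. TMC6, a transmembrane channel-like gene that shares its promoter region with TMC8, followed with 7059 bp at chr17:76122293-76129351. MIDN, whose product delivers nuclear proteins to the proteasome, had 6835 bp at chr19:1247387-1254221. CENPX, a centromere and DNA repair gene, had 6645 bp. The corepressor gene TLE3, of the Groucho family, had 6581 bp at chr15:70387861-70394441, with its apex 5 bp from a start site. BRD2, a reader of acetylated histones, had 6205 bp at chr6:32934975-32941179. SIN3A, the scaffold of a histone deacetylase complex, had 6203 bp at chr15:75742594-75748796. The AP-1 gene JUNB had 5858 bp at chr19:12899243-12905100 and lay wholly inside its peak. The 10 widest members were completed by an unlabelled peak of 5798 bp and by a peak of 5677 bp labelled MIR5193. The unlabelled peak lay inside the FMNL1 gene at chr17:43299441-43305238, with its apex 4365 bp from an FMNL1 start site. The label MIR5193 named a microRNA, although that peak also covered the start sites of UBA7, which encodes the activating enzyme for ISG15, and of INKA1.

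Height and total signal come from the same signal track as the width and are given as a description. The heights of members ranged from 16 to 86 with a median of 36 (95% interval 35 to 38), against 24 (24 to 25) in all other peaks and 33 (32 to 34) in peaks from 1500 to under 2500 bp. Of the members, 57 were lower than the median of the whole list, which was 25. The 3 highest were a peak labelled MDC1 (86), whose apex lay 154 bp from the start site of the tubulin gene TUBB, a peak at the chaperonin gene TCP1 (83) and a peak at TBC1D10B (81). SIN3A followed with 77, and the unlabelled ING1 and CARS2 peak with 75. CENPX and the chromatin reader gene PHF12 both had 69, an unlabelled peak in PPP1R18 had 68, and 3 peaks shared a height of 67, at LRCH4, at the cochaperone gene STIP1 and within SORCS2. In total signal, SIN3A led with 139582, and the ING1 and CARS2 peak (109437), BRD2 (96822), MIDN (94406) and GRK2 (85495) came next. RNF44 had 82549, TMC6 79367, the actin-severing gene CFL1 77779, ST3GAL1 73184 and an unlabelled peak at LINC01814 72864. SIN3A thus stood high in width, height and total signal, whereas MDC1 (2737 bp), TCP1 (2881 bp) and TBC1D10B (3357 bp) were tall but not among the widest.

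**Figure D1:**
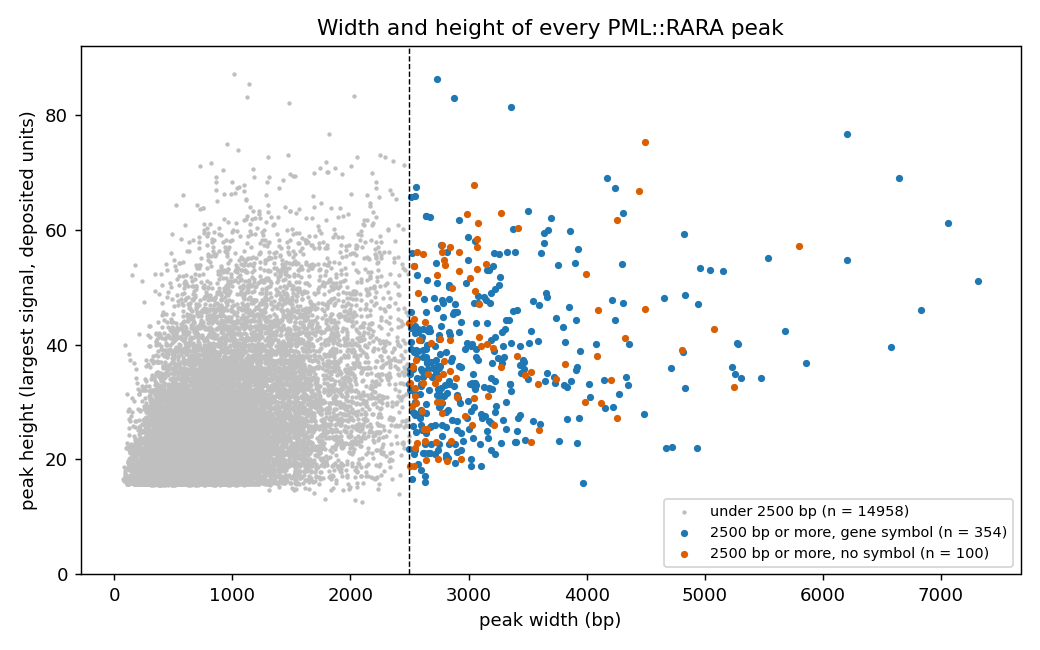
Each point is 1 peak of the induced anti-PML-RARA list, with its width in bp on the x axis and its height in deposited units, spread by a small random shift, on the y axis; the dashed line marks 2500 bp. Heights of members run from 16 to 86, and the 3 tallest, all at most 3357 bp wide, are not the widest.

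Spearman's rho of width with height was 0.20 over the 454 members and 0.47 over all 15412 peaks, where both measures come from 1 track and no p-value is given. The members were selected on width, which narrows its range, so the 2 values cannot be compared. The median height was 35 in members under 3000 bp, 37 from 3000 to 3999 bp and 40 from 4000 bp. The signal per base had a median of 10.7 (10.4 to 11.1) in members, 10.3 (10.2 to 10.5) in peaks from 1500 to under 2500 bp and 8.68 (8.62 to 8.75) in all other peaks. The mean signal was 29.8% of the height (29.0 to 30.5) in members and 35.1% (34.9 to 35.2) in all other peaks. In peaks from 1500 to under 2500 bp it was 31.8% (31.4 to 32.05). Across a member the signal was thus a smaller part of its height than in the rest of the list. Peaks from 1500 to under 2500 bp lay in between, nearer the members.

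As a percent of the width, the apex lay farther from the middle of the peak in members. The measure is scaled by the width that the rule selects on, so it is not independent of the rule. Its median rose with each class of width, from 11.8% below 500 bp to 23.2% from 4000 bp. The median distance of the apex from the centre was 20.4% of the width (18.0 to 22.0) in members. It was 13.9% (13.7 to 14.2) in other peaks and 15.8% (15.1 to 16.6) in peaks from 1500 to under 2500 bp. In 23 members (5.07%) the apex fell in the outer 10% at either end, compared with 1.20% of other peaks, a difference of 3.87 percentage points (2.19 to 6.30). The most lopsided members included SQSTM1, an autophagy receptor gene, with the apex at 3.19% of the width from an edge, and GFI1, a repressor of myeloid genes, at 3.71%. The interval of largest signal was short, with a median of 3 bp over the 450 members that have both of its ends, and exceeded 100 bp in 26.

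By the study's methods a feature was given to a peak where its apex overlapped that feature, and a gene symbol is read here as a promoter label, although not every labelled apex lay near a start site. A symbol was present on 354 members (78.0%, Wilson 95% interval 73.9 to 81.5) and absent from 100. The same held for 46.5% of all peaks and for 45.6% of the peaks outside the members. This share did not keep rising with width. It was 18.7% below 500 bp, 65.3% from 1000 to 1499 bp, 74.2% from 1500 to 1999 bp and 76.6% from 2000 to under 2500 bp. Among members it was 75.7% under 3000 bp, 81.6% from 3000 to 3999 bp and 77.0% from 4000 bp. The members differed from peaks from 1500 to under 2500 bp by 3.10 percentage points, with an interval of -1.32 to 7.14 that includes no difference.

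**Figure D2:**
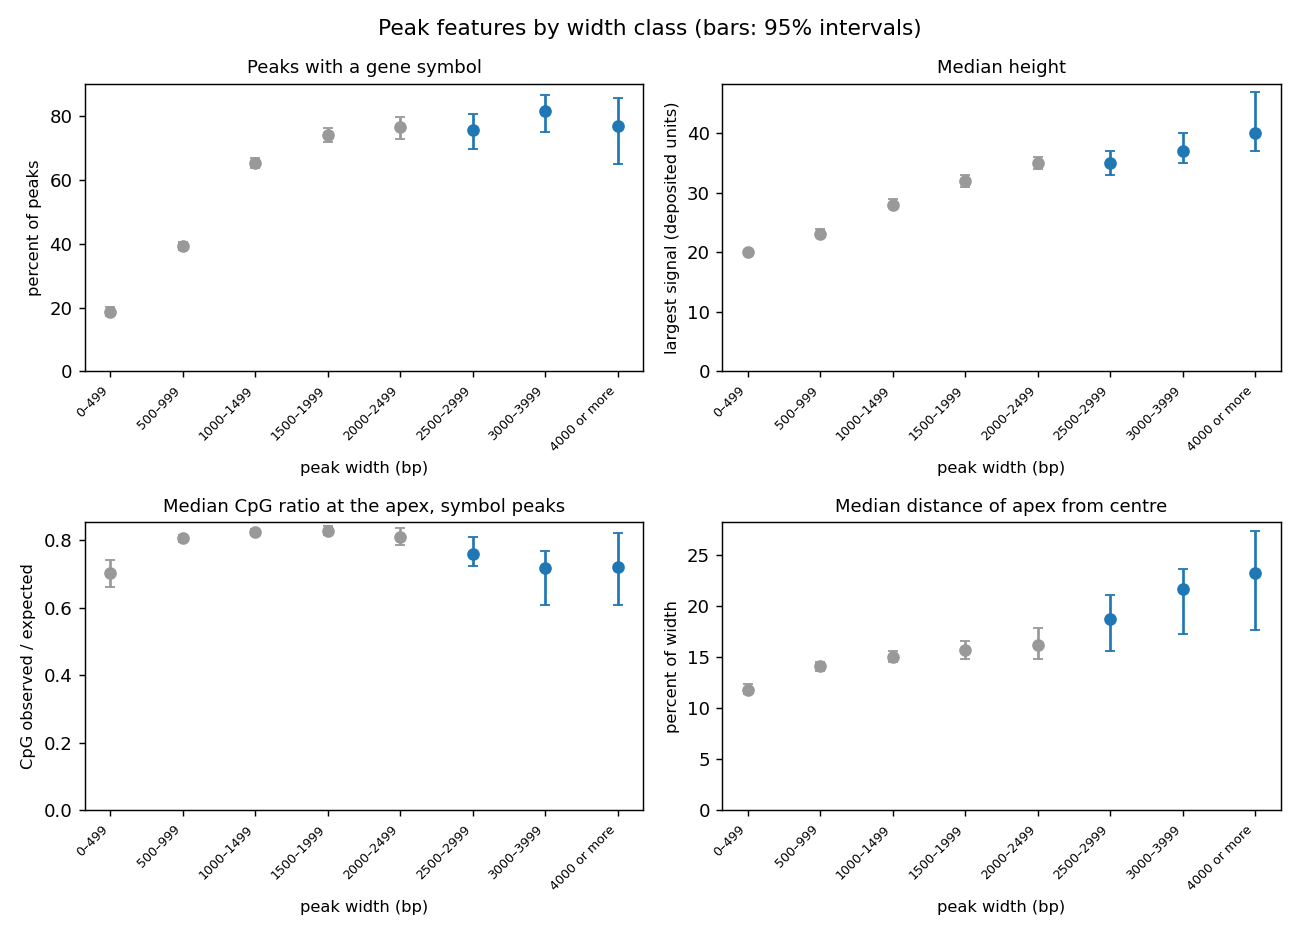
Peaks in 8 classes of width (x axis, bp), with members in blue and narrower peaks in gray, showing the percent with a gene symbol, the median height, the median CpG observed over expected at the apex of peaks with a symbol and the median distance of the apex from the peak centre; bars are 95% intervals. The share with a symbol levels off from 1500 bp, where it is 74.2%, while the apex moves away from the centre, from 16.2% of the width in the class below the threshold to 23.2% in the widest.

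The 354 labelled members carried 352 gene symbols, which is 5.38% of the 6546 genes labelled anywhere in the list. The genes BCOR and PLEC had 2 wide peaks each. BCOR, a corepressor mutated in myeloid leukaemia, had peaks of 3545 and 3107 bp at chrX:40033112-40036656 and chrX:39955685-39958791. PLEC, which links the cytoskeleton to the membrane, had peaks of 4158 and 2806 bp on chromosome 8. Against the share of 5.38%, the genes of several regulatory groups were counted, without a test since the lists were chosen with these data known.

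Of 40 genes with a symbol peak in the list of haematopoietic transcription factors, which also holds the RNA-binding regulator ZFP36L2, 13 (32.5%) had a wide one. The widest were GFI1 (5474 bp, height 34), ZFP36L2 (4363 bp, 40), MYB (4151 bp, 34), HOXA10 (3837 bp, 27), STAT5A (3603 bp, 26) and HHEX (3236 bp, 29). The other 7 of the list were 2500 to 2883 bp wide, and the SPI1 peak was the narrowest. Height varied among them, since RUNX1 and CEBPB had the same width of 2883 bp but heights of 47 and 19. Of 26 AP-1 and immediate early genes, 7 (26.9%) had a wide peak, led by JUNB (5858 bp), FOSL2 (3849 bp), IER3 (3148 bp), JUN (2824 bp), FOS (2794 bp) and MAFG (2778 bp). In the KLF and SP family the count was 4 of 12 (33.3%), with KLF10 at 4213 bp and KLF13 at 4081 bp, and KLF9 and KLF16 at 2752 and 2594 bp.

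Corepressor genes had wide peaks in 7 of 20 (35.0%). Beside TLE3 and SIN3A these included CTBP1 (3969 bp), BCOR, CBFA2T3 (3225 bp), which is a partner in another leukaemic fusion, and RCOR3 (2681 bp). The CTBP1 peak was wide but low, with a height of 16 against 77 for SIN3A. TGF-beta pathway genes had 4 of 15 (26.7%), namely the inhibitory SMAD6 (3638 bp), SKI (3403 bp), the ligand TGFB1 (3316 bp) and TGIF1 (3054 bp). MAP kinase feedback inhibitors had 2 of 9 (22.2%), DUSP6 (3503 bp) and SPRED2 (2727 bp).

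Cell cycle regulators had 5 of 36 (13.9%), with GADD45B (5231 bp), CCND3 (4823 bp), CDK6 (4675 bp), E2F3 (3378 bp) and CDKN1A (2904 bp). The genes recurrently mutated in acute myeloid leukaemia had 3 of 21 (14.3%), ARID1A (3443 bp) beside BCOR and RUNX1. Of zinc response genes, 1 of 8 (12.5%) had one, the zinc exporter gene SLC30A1 (2537 bp). Heat shock and stress genes had 2 of 20 (10.0%), SQSTM1 (3665 bp) and HSP90AA1 (2550 bp), and NF-kB and inflammatory genes had 2 of 22 (9.09%), PTGER4 (3459 bp) and NFKBIE (2727 bp). Solute carriers had 10 of 113 (8.85%), with the lactate exporter gene SLC16A3 widest at 5260 bp.

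Among the remaining protein-coding groups, none exceeded the 5.38% of all labelled genes. Shares by list carry no interval. Those that rest on 1 or 2 genes, such as that of zinc response genes, are not read as different from 5.38%. The list of chromatin modifying enzymes had 1 of 29 (3.45%), which was BRD2, a reader and not an enzyme that modifies histones, leukocyte surface proteins 1 of 24 (4.17%), the chemokine receptor gene CXCR4 (2640 bp), and ZNF genes 1 of 141 (0.709%), ZNF367. None of 40 labelled ribosomal protein genes, 50 oxidative phosphorylation genes or 25 proteasome genes had a wide peak, nor did the 7 labelled retinoid receptor and target genes, and none of the 4 histone symbols searched was labelled. The RARA gene itself had no symbol on its wide peak, an unlabelled member of 2923 bp at chr17:38478023-38480945 with a height of 53, which covered a RARA start site. UBA7, also in the list of retinoid receptors and targets, had a start site under the wide peak labelled MIR5193. By start site, 2 of the 10 genes of that list found under any peak lay under a wide one. No share by start site was counted over all genes, so this count cannot be set against 5.38%, which is by symbol. The other lists are given by symbol only. Among RNA genes, 11 of 100 labelled microRNA genes (11.0%) had a wide peak, such as MIR26B (5275 bp), MIR22 (3675 bp) and MIR142 (3468 bp), and 18 of 187 long noncoding and antisense genes (9.63%), such as LINC01137 (4335 bp) and NEAT1 (3546 bp). The apex of the MIR26B peak was 16 bp from the start site of its host gene CTDSP1, so a microRNA symbol did not mean that the microRNA alone was covered.

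**Figure D3:**
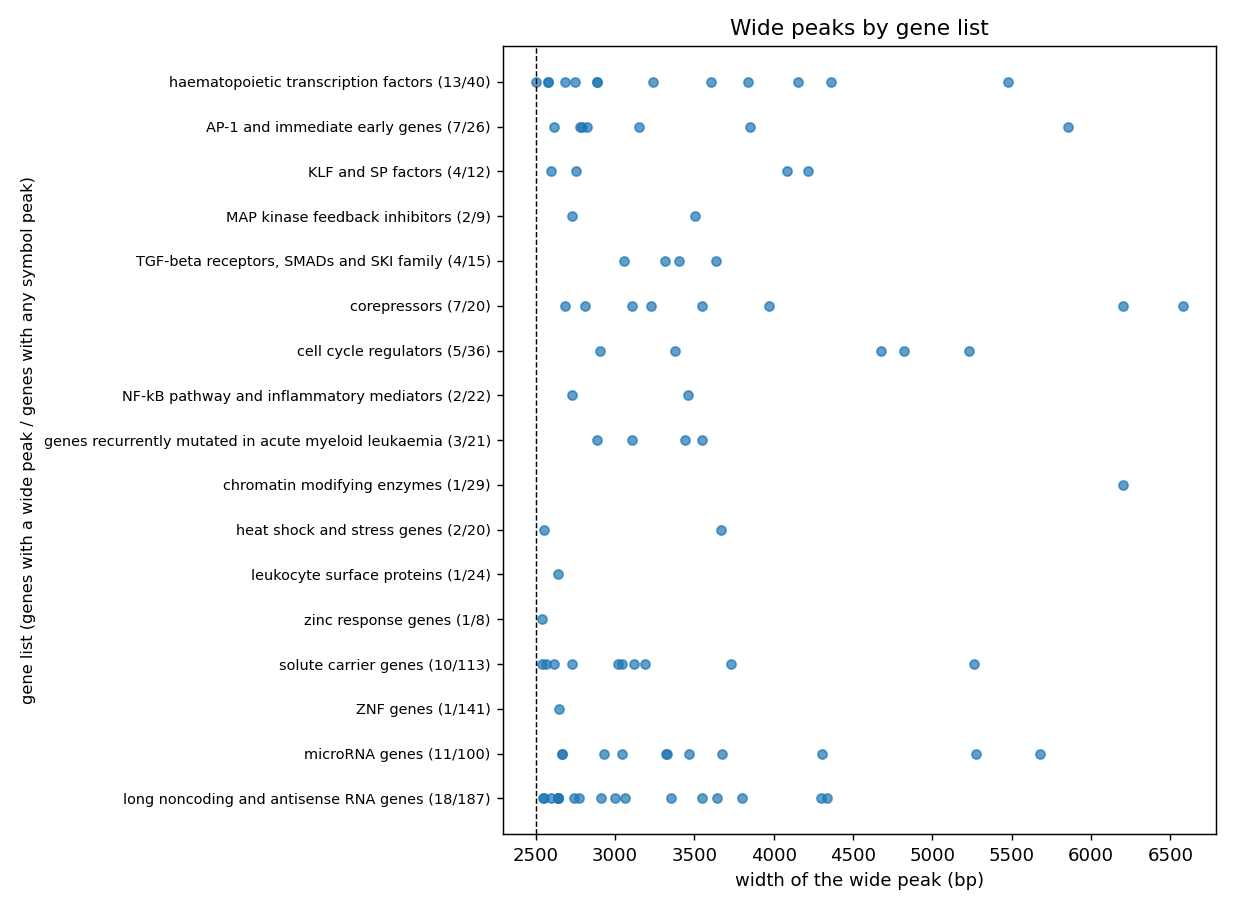
Each point is 1 wide peak with a gene symbol, placed by its width in bp (x axis) and its gene list (y axis), and the numbers beside each list are the genes with a wide peak and the genes with any symbol peak; the dashed line is the threshold. Corepressors (7 of 20) include the widest peak shown, 6581 bp, and the list of haematopoietic transcription factors, with ZFP36L2 among them, has 13 of 40.

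The gene symbol was not always that of the nearest start site. Within 1 kb of the apex, 281 labelled members had a GENCODE start site of their own symbol and 60 did not, while 13 symbols were absent from GENCODE. In 22 of the 60 another gene started within 1 kb, as at the peak labelled STX10, whose apex lay 76 bp from a start site of the immediate early gene IER2. Symbols were not matched to start sites in this way for other peaks. A start site of any gene lay within 1 kb of the apex in 88.4% of labelled members and 95.3% of other labelled peaks. Of the 100 unlabelled members, 37 had a protein-coding start site within 1 kb of the apex. They included the peaks at the actin genes ACTB (4084 bp) and ACTG1 (3739 bp), at the glycolytic gene GAPDH (3818 bp) and at the vimentin gene VIM (2901 bp), which were named after their values were seen. A start site of any gene lay within 1 kb of the apex in 49.0% of unlabelled members and 19.7% of other unlabelled peaks. The absence of a symbol did not therefore mean that a member lay away from promoters.

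Beside the FMNL1 peak, the 10 widest unlabelled members lay nearest the protein-coding genes REXO1 (5245 bp), ZFP36L2 (5079 bp), LASP1 (4811 bp), ING1 (4497 bp), TRIM7 (4496 bp), SORCS2 (4443 bp), SH3BP2 (4326 bp), ID2 (4261 bp) and CIRBP (4258 bp). The apices at LASP1, ING1, SH3BP2 and CIRBP lay 48 to 481 bp from a start site of that gene. By contrast, the ZFP36L2 member lay 92397 bp, the SORCS2 member 84319 bp and the ID2 member 133686 bp away. The ID2 member was at a noncoding gene, with the apex 77 bp from a start site of LINC01814. In all, 15 unlabelled members were more than 50 kb from a protein-coding start site. The apex of 1 of them, 3478 bp wide at chr16:86015513-86018990, lay 69186 bp from a start site of the myeloid transcription factor gene IRF8.

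A start site of any GENCODE gene lay under 410 members (90.3%, 87.2 to 92.7), and under 49.5% of other peaks and 84.0% of peaks from 1500 to under 2500 bp. A wider interval has more room for a start site, so these shares are not independent of the rule. Start sites of both strands lay under 173 members (38.1%), and protein-coding start sites of both strands under 61 (13.4%), which differed by 0.0902 percentage points (-3.12 to 3.80) from peaks from 1500 to under 2500 bp. The median distance from the apex to the nearest start site was 174.5 bp (147 to 225) in members, 562 bp (496 to 625) in all other peaks and 128 bp (119 to 138) in peaks from 1500 to under 2500 bp. Among labelled peaks alone it was 140.5 bp (114 to 165) in members and 72 bp (70 to 75) in the rest, so that members lay nearer a start site than other peaks over the whole list but farther from one among peaks with a symbol. It was in an intron in 44.4% of labelled members and 28.3% of other labelled peaks, a difference of 16.1 percentage points (10.9 to 21.4). The 5′ UTR held it in 16.7% and 23.9%, and intergenic sequence in 24.6% and 34.7%.

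In 237 members all start sites under the peak were of 1 strand, so that upstream and downstream could be told apart. A median of 60.7% (56.0 to 65.1) of their width lay downstream of the start site nearest the apex, and 150 of the 237 had more than 50% downstream. Peaks of 1500 to under 2500 bp had a median of 57.0% (55.5 to 58.3) downstream, and other peaks 53.6% (52.8 to 54.5). In bp, members extended a median of 1848 downstream and 1183 upstream. The members farthest downstream were LINC00324 (98.8%), the TYMP and SCO2 peak (98.0%) and an unlabelled peak nearest EIF1 (96.8%). At the opposite end were a PLEC peak (2.96%), the FMNL1 peak (3.45%) and an unlabelled peak nearest CD93 (3.66%). With protein-coding genes alone the median fell to 55.3% (52.1 to 59.1), close to the 53.8% of other peaks, so the value depended on which genes were counted.

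**Figure D4:**
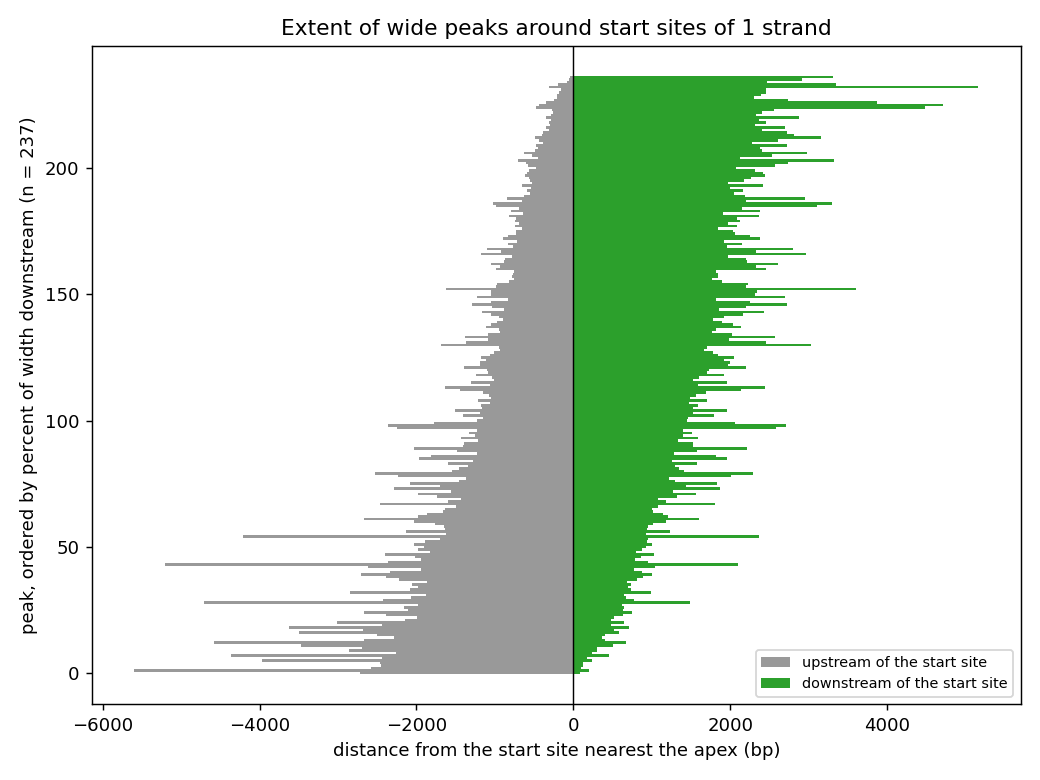
Each row is 1 of the 237 members with start sites of 1 strand, drawn as bp upstream (gray, negative) and downstream (green) of the start site nearest its apex, ordered by the percent downstream. The green side is the longer in 150 rows, and the range runs from 2.96% to 98.8% downstream.

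Promoters of broadly expressed and of developmental genes are often CpG islands, stretches where the CpG dinucleotide is not depleted. In 400 bp at the apex, the ratio of observed to expected CpG had a median of 0.708 (0.656 to 0.740) in members and 0.435 (0.423 to 0.449) in other peaks. Among peaks with a gene symbol the order was turned round, with 0.739 (0.699 to 0.771) in members and 0.809 (0.805 to 0.816) in the rest. The apex lay in a CpG-rich stretch in 73.4% of labelled members and 84.0% of other labelled peaks, a difference of -10.6 percentage points (-15.5 to -6.18). GC content differed little between labelled members (65.5%) and other labelled peaks (64.25%). The ratio ranged from 0.0596 to 1.19 over the members. Of genes named above, CTBP1 had 1.13 and GADD45B 1.09, whereas STAT5A had 0.131 and CCND3 0.108. Spearman's rho of width with CpG-rich stretch length at the apex was 0.36 among labelled peaks under the threshold (n = 6815). Among labelled members it was -0.16 (n = 354). Peaks share 1 track and 1 genome, and no p-value is given. The members were selected on width, which narrows its range, so these values of rho cannot be compared. The length was 0 where the apex lay outside such a stretch, so rho also depends on where the apex lay.

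Motif shares at the apex were compared over all peaks and then among peaks with and without a symbol. Over 400 bp, an ETS match occurred in 36.6% of members (32.3 to 41.1) and 42.4% of other peaks, an SP match in 73.3% and 47.9%, a RUNX match in 20.7% and 29.0%, and an AP-1 match in 11.0% and 17.9%. Among labelled peaks the difference, members minus others, was -0.555 percentage points for ETS (-5.52 to 4.70), 1.66 for SP (-3.07 to 5.82), 3.68 for RUNX (-0.159 to 8.16) and 1.73 for AP-1 (-0.911 to 5.23), and these 4 intervals included 0. Against labelled peaks from 1500 to under 2500 bp, however, it was 5.44 for ETS (0.0788 to 11.0), 5.78 for RUNX (1.65 to 10.5) and -6.20 for SP (-11.1 to -1.75), which do not include 0, and 2.02 for AP-1 (-0.882 to 5.66). The nuclear receptor site AGGTCA, which retinoid receptors bind in pairs, was found in 17.8% of members and 23.2% of other peaks, and in 16.1% and 16.6% of the labelled ones. The CCAAT box occurred in 38.3% of members and 39.5% of others, the E-box in 11.5% and 10.7%, and a C/EBP match in 1.32% and 1.84%. Among unlabelled peaks, an SP match was found in 58.0% of 100 members and 24.4% of the 8143 others, and a RUNX match in 27.0% and 40.5%, differences of 33.6 (23.8 to 42.9) and -13.5 (-21.3 to -3.96) percentage points. These unlabelled groups also differed in covering a start site (61.0% and 14.0%) and in having the apex in a CpG-rich stretch (51.0% and 15.7%). Whether the motif differences go with these was not tested.

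**Figure D5:**
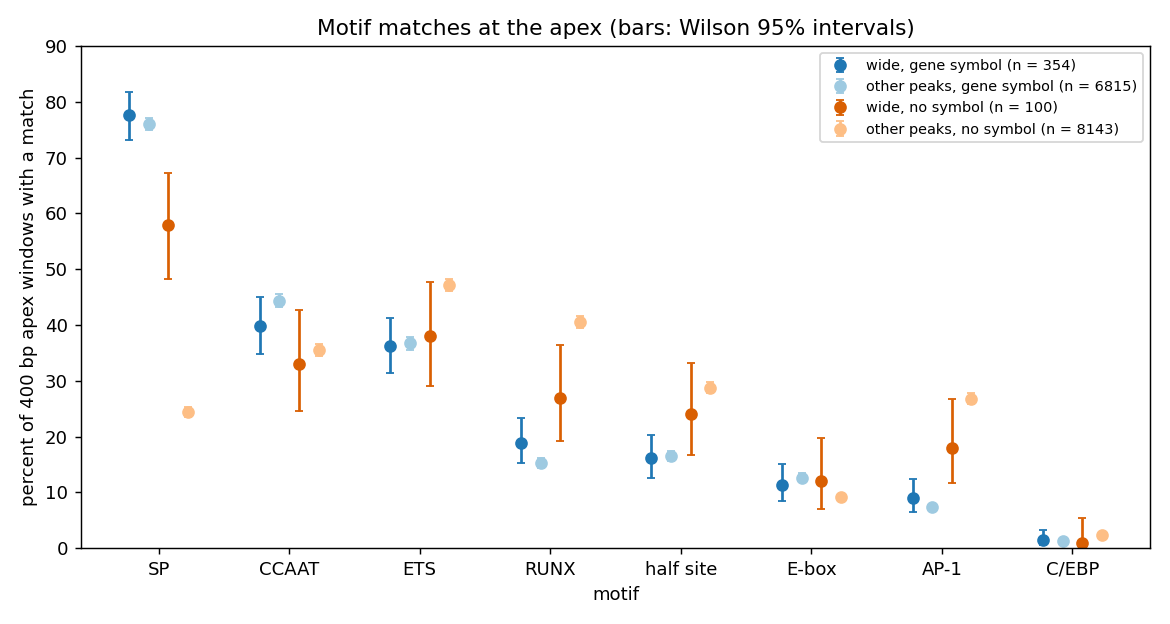
Percent of 400 bp apex windows with at least 1 match to each motif (x axis), for peaks with a gene symbol (blue) and without (orange), members in the darker and other peaks in the lighter shade, with Wilson 95% intervals. Members and other peaks with a symbol lie close together, as for SP (77.7% and 76.0%), while those without a symbol lie apart for SP, 58.0% and 24.4%.

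Wide peaks had company. Another peak lay within 10 kb of 278 members (61.2%, 56.7 to 65.6), against 44.6% of peaks from 1500 to under 2500 bp and 44.2% of all other peaks, and the differences were 16.7 (11.6 to 21.5) and 17.0 (12.4 to 21.5) percentage points. The gap also held among labelled peaks, with 59.0% and 34.6%. In 63 members (13.9%) 3 or more other peaks lay that near, compared with 6.79% of other peaks. Distances run from edge to edge.

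Another wide peak lay within 50 kb of 100 of the 454 members (22.0%, 18.5 to 26.1), against 13.5% of peaks from 1500 to under 2500 bp and 9.22% of all other peaks. The differences were 8.54 (4.66 to 12.8) and 12.8 (9.21 to 16.9) percentage points. These 100 members formed 43 groups, of which 7 held 3 or more. The largest group had 7 wide peaks between chr11:63952179 and 64073754, at STIP1, the integrin adaptor gene FERMT3, TRPT1, FKBP2, GPR137, the apoptosis gene BAD and the nuclear receptor gene ESRRA. Groups of 4 lay at MIDN and CIRBP on chromosome 19, at IER3, MDC1 and PPP1R18 on chromosome 6, and over the HOXA cluster on chromosome 7, where HOXA7, HOXA9, HOXA10 and HOXA13 were the labels. The genes of these groups were named after their values were seen.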

How the data were processed

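The list was taken as that of anti-PML-RARA in induced U937-PR9 cells from its name and the paper's number of peaks, since the labels do not tie it to samples. The authors used Trimmomatic on the reads, Bowtie2 for alignment to hg19 and SAMtools to take out duplicates, called peaks with SEACR against paired controls and kept peaks reproducible across both replicates. The authors deposited a total signal per peak and a SEACR score, which is the largest signal in it (here height). Their meaning was taken from the values, since total signal was below height times width in all 15412 peaks, and whether the signal is normalised or pooled is not given in the sources used here. All 3 value columns were used, and none was left unmapped. The deposited width is in bp.

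The apex was the midpoint of the interval of largest signal, or its start in the 34 peaks that lack its end (4 members). Start sites, exons and UTRs came from the GENCODE annotation mapped to GRCh37, the build of the list. Composition and motifs, read on both strands, used 400 bp at the apex. A CpG-rich stretch was a run of 200 bp windows, moved by 50 bp, with a GC fraction of at least 0.5 and a CpG ratio of at least 0.6. Shares carry Wilson, differences of shares Newcombe and medians exact binomial 95% intervals, and no test was run. The code was tested on simulated data.

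The members, 22 gene lists and comparisons were chosen with earlier results of these data known. Genes named are the 10 widest, highest and largest in total signal, up to 6 per list by width, genes with 2 wide peaks, the 3 on each side of the threshold, the 10 widest unlabelled and the 3 at each end of the downstream share. Other genes, such as RARA, IRF8 and STX10, were chosen after their values were seen or only mark a position. A gene and a sequence that the rule chose are not reported here. Alternatives were other width limits, merged neighbours, taller members, chromosome 19 left out, and other start sites, windows and distances. Versions were samtools 1.23.1, matplotlib 3.10.9, pandas 2.3.3, pysam 0.24.0, scipy 1.17.1, numpy 2.4.6 and Python 3.11.15.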

Additional observations from a re-analysis of the deposited data

How the results depend on the processing

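Of 66 alternative values over 12 results, 41 stayed within the 95% interval of the reported value, or within 1.5 times a count, and 25 did not. The number of wide peaks was 1056 at 2000 bp, 224 at 3000 bp and 753 when neighbours under 1 kb apart were merged. Merging gave 72.1% with a symbol, a signal per base of 9.47, an apex 22.8% from the centre, 84.3% over a start site, 53.9% of the width downstream, a CpG ratio of 0.630 and 54.9% with a neighbour. At 2000 bp the apex was 17.8% from the centre, the CpG ratio 0.7445 and 54.3% had a neighbour. At 3000 bp the height was 39 and 67.0% had a neighbour. The taller members had a height of 45.5, a signal per base of 13.0 and an ETS match in 41.4%, where the first 2 follow from their selection. With protein-coding genes, 84.8% covered a start site, the apex was 251.5 bp from it and 55.3% of the width was downstream, and from the most upstream start site 71.7% was. An ETS match was in 24.7% of 200 bp windows and in 24.9% of windows at the peak centre, and 44.9% had a neighbour within 5 kb. The cause of the other shifts was not tested. Counting protein-coding genes with a start site under a wide peak, an alternative chosen after seeing the data, gave 455 genes in place of 352. No paired analysis was possible because both replicates share 1 value per peak, and leaving out a replicate was not possible either. Depth is unknown and limits what a low peak can show.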

Other observations

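The share of wide peaks was counted on each chromosome of the list. The highest shares and the lowest are given here, picked by their values, beside 2.95% in the whole list. The whole list includes these chromosomes, and whether the share differs between chromosomes was not tested. Wide peaks made up 5.56% of the peaks of chromosome 11 (50 of 900, Wilson 95% interval 4.24 to 7.25) and 4.25% of chromosome 17 (45 of 1058, 3.19 to 5.64). They made up 3.91% of chromosome 19 (40 of 1022, 2.89 to 5.29) and 0.578% of chromosome 18 (1 of 173, 0.102 to 3.20). The intervals of chromosomes 19 and 18 included the share of the whole list, and those of chromosomes 11 and 17 lay above it. The 7 neighbouring peaks from STIP1 to ESRRA are among the 50 of chromosome 11.

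Genes labelled at wide peaks had a smaller median length than other labelled genes, which was not tested. The gene body had a median of 19272 bp (16605 to 23680) over the 339 of 352 symbols found in GENCODE, and of 30972 bp (29843 to 32425) over the 6042 others. Genes under 5 kb made up 14.7% (11.4 to 18.9) of the former and 10.2% (9.51 to 11.0) of the latter. RNA genes were kept in both groups, and lengths were not compared by type of gene. A wide peak was found at 11.0% of labelled microRNA genes and 9.63% of long noncoding and antisense genes, against 5.38% of all labelled genes. In 9 of the 454 members a whole protein-coding gene lay inside the peak, as at JUNB, GADD45B and IER3, which were picked after their values were seen. A wider peak has more room for a whole gene, and other peaks were not counted in this way.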
